A study of Homo sapiens with 35 samples.

Results

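The 148 transcript entries described here are listed under a sequence database accession in place of a gene symbol. They are the entries of the gene table whose name is AF, AK, AL, AX, BC, BX or CR followed only by digits, that were quantified in all 6 libraries and that had a mean estimated count of at least 100 over those libraries. The table has 28503 entries in all, of which 28443 were quantified in every library. Names of this pattern are carried by 2292 of them. Of these, 13 were unquantified in some library and 2131 had a mean count under 100, including 605 at 0 in every library. The 148 comprised 64 AK, 52 BC, 11 AL, 9 AX, 6 AF, 4 BX and 2 CR entries. The mean count that chose them pools the 3 groups, so an entry that was high in a single group could enter through that group, and the counts of members below are descriptions. The values nearest to the limit were mean counts of 100.6 for AX747104, 101.4 for AK123459 and 102.3 for BC024682 just inside it, and 99.46 for BC028022, 99.37 for BC150535 and 98.26 for AK095267 just outside it.

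Accessions of these kinds are given to single cloned complementary DNAs and other deposited sequences. Gene annotations that keep such clones list them as entries of their own, and a clone can then lie inside, beside or on the opposite strand of a named gene, carry an alternative end or a retained intron, or come from a locus with no named gene. When such an entry and a named gene cover the same bases, software that estimates abundance divides the shared fragments between the pair. None of the 148 accessions matched a current symbol, synonym or accession in the gene tables used here (0 matched), so no gene name, position, function or sequence is given for them.

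RNA was sequenced from DU145 cells, a line of prostate cancer established from a metastasis in the brain, in 3 groups of 2 libraries. A short hairpin RNA was directed against ZMYND8 (shZMYND8), against JARID1D (shJARID1D) or against luciferase (shLuciferase, the control). ZMYND8 binds chromatin through domains for acetylated and methylated histones, and JARID1D, encoded by KDM5D, is a demethylase of histone H3. No other treatment or genetic change is named in the labels, and all groups express a hairpin. Whether the 2 libraries of a group are separate cultures is not in the labels, so p-values reflect only how these libraries vary, which may be technical variation. The chromatin and input samples of the series, 29 in number, were not analysed here.

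The deposited counts summed to between 22925611 and 25001300 per library, or 20.7 M to 27.4 M fragments once the scaling they carry per library is undone. Values are given as CPM, counts per 1 M of a library total that was adjusted by a TMM factor, the trimmed mean of M values of edgeR. Marker levels, shares of the counts and the limit at 0 fragments use plain library totals. A library with no fragments for an entry allows a level of up to 0.109 to 0.145 CPM, which covers counting error only. ZMYND8 stood at 35.5 and 33.2 CPM in shZMYND8 libraries, at 69.7 and 63.7 CPM in shJARID1D libraries and at 64.7 and 52.7 CPM in shLuciferase libraries. KDM5D stood at 55.5 and 59.9 CPM in shZMYND8, at 19.6 and 17.9 CPM in shJARID1D and at 58.1 and 61.0 CPM in shLuciferase, so each hairpin's own target was lowest in its own libraries. The epithelial keratins KRT8 (333 to 798 CPM over the libraries) and KRT18 (225 to 402 CPM) were abundant, EPCAM was at 5.61 to 19.8 CPM, and the prostate luminal gene KLK2 was at 0 in every library. Summed over 5 fibroblast markers, the level was 4.99 to 5.13 CPM in shZMYND8, 2.07 to 3.38 CPM in shJARID1D and 1.29 to 1.84 CPM in shLuciferase, with DCN at 0. Summed over 3 endothelial markers it was 0.656 to 0.887, 0.217 to 0.386 and 0.126 to 0.242 CPM in shZMYND8, shJARID1D and shLuciferase. The part of these markers in the results below was not tested.

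Together the 148 entries took 0.394% and 0.43% of the counts in shZMYND8 libraries, 0.382% and 0.366% in shJARID1D libraries, and 0.363% and 0.326% in shLuciferase libraries. A single entry, BC018860, held 0.188% and 0.227% of the counts in shZMYND8, 0.163% and 0.161% in shJARID1D, and 0.154% and 0.138% in shLuciferase. Without it the other entries held 0.188% to 0.219% of the counts, with all groups overlapping in that range. Mean levels ran from 4.3 to 1776 CPM with a median of 8.78 CPM. Most entries were near the low end: 57 reached a mean of 10 CPM and 2 reached 100 CPM. CPM do not correct for transcript length, which is not known for these entries, so the order of their levels is an order of fragments and not of transcripts. These are bulk samples of a single cell line, in which fewer cells with an RNA and less of it per cell cannot be told apart.

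The most abundant entry, BC018860, stood at 1930 and 2354 CPM in shZMYND8, at 1605 and 1658 CPM in shJARID1D and at 1644 and 1465 CPM in shLuciferase. Both shZMYND8 libraries were above every other library. It was 1.38-fold higher in shZMYND8 than in shLuciferase (0.46 ± 0.13 as a log2 fold change, edgeR adjusted p = 0.0427), but the call held in only 1 of the 6 fits that left out a library each, with edgeR adjusted p from 0.029 to 0.296. Here and below, log2 fold changes are given ± the standard error of the fit (2 libraries per group), and an adjusted p is from edgeR's quasi-likelihood test, adjusted by the Benjamini-Hochberg method over the 15867 entries and genes tested and compared with 0.05. The next most abundant entry, BC016015, is described with its partner SOD2 below. AF079515 (73.8 to 114 CPM over the 6 libraries), BC067230 (55.7 to 89.5 CPM) and AL833455 (65.0 to 94.4 CPM) complete the 5 most abundant, and their edgeR adjusted p were between 0.117 and 0.952 in all 3 comparisons.

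Whether a value was a whole number of fragments separated the entries into kinds. In the deposited counts 1 fragment is worth 0.881 to 1.16, by library, and the counts were divided by it. Fragments assigned to a single annotated gene add up to whole numbers, whereas fragments divided between genes, overlapping or near-identical in sequence, need not. Which of these divided a value cannot be told without the annotation or the positions of the entries. Among values under 1000 fragments, 48.4% of those of the 148 entries (399 of 825) lay within 0.05 of a whole number, against 65.2% for named long noncoding and antisense RNAs and 86.1% for protein-coding symbols with the same minimum mean count. Counted by entry, 59 of 140 unnamed entries with such values (42.1%) were whole in every library, against 122 of 208 named noncoding RNAs (58.7%) and 5325 of 6487 protein-coding symbols (82.1%). Thus the unnamed entries had the smallest share of whole values of the 3 classes, a description over entries, which are not replicates.

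**Figure D1:**
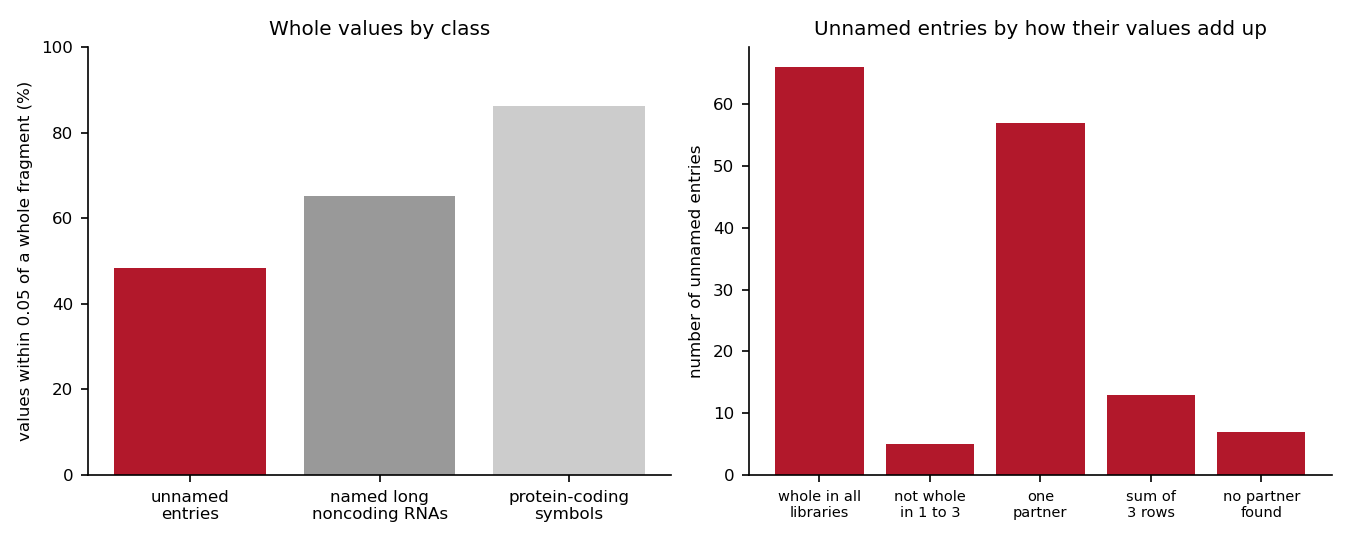
Left, the percentage of values under 1000 fragments that lay within 0.05 of a whole fragment, over all 6 libraries, for unnamed entries (48.4%), named long noncoding RNAs (65.2%) and protein-coding symbols (86.1%), all with a mean count of at least 100. Right, the number of unnamed entries by how their values add up: 66 were whole in every library, 5 were not whole in 1 to 3 libraries, 57 had a single partner, 13 added up with 2 other genes or entries, and for 7 no unique partner or sum was found.

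For the entries with divided values, the other gene was looked for in the table itself. If a fragment is divided between an entry and a partner, the 2 values must add up to a whole number in every library. Of the 148 entries, 66 were whole within 0.03 in all 6 libraries, 5 were not whole in 1 to 3 libraries and 77 were not whole in at least 4. The rounding of the deposited values to 6 digits was allowed for on top of the 0.03. Among the 77, exactly 1 other gene or entry completed the value in all libraries for 57, and exactly 1 sum with 2 others did so for 13. For 7 no unique answer was found, which includes values that several candidates could complete. Genes with very large counts were left out of the search. A sum was taken as whole within 0.01, or 0.015 for sums with 2 others, where the rounding of the deposited values to 6 digits was allowed for in pairs, and this rounding exceeds 0.01 fragments in large counts. The completed sums of the 57 lay within 0.047 of whole numbers in their worst library, with a median of 0.0028, whereas the next best candidate of any of them was off by at least 0.0568, with a median of 0.13. The search covered 3253 genes and entries with divided values.

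The 57 single partners comprised 42 protein-coding symbols, 2 named long noncoding RNAs, 4 of the 148 entries themselves, 5 unnamed entries under the limit and 4 others. The 4 form 2 pairs, AK095112 with AK126318 and AL831889 with BX537811, so the members of each pair share fragments and are not independent of each other. The noncoding partners were MIR22HG, the host transcript of microRNA miR-22, for AF070569 and LOC388692 for BC023516. These classes go by the name alone, so MALAT1, an abundant nuclear RNA and the partner of BC010924, is counted among the 4 others. The coding partners included, as examples chosen after the values were seen, DUSP1, a phosphatase that inactivates mitogen-activated kinases, for AK316321, CYR61, a secreted matrix protein, for AL832891, SOD2, the mitochondrial superoxide dismutase, for BC016015, and PPP1R15B, a phosphatase subunit acting on the translation factor eIF2, for AK316092. A partner is named only from sums of values. It is not a name for the entry.

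Among the 13 sums with 2 others, both other genes had a RefSeq name in 6, and in all 6 those 2 genes lay on the same chromosome. They overlapped in 3 cases, namely TROVE2 and UCHL5 for AK022030, THAP9 and THAP9-AS1 for AK128593, and C19orf71 and MFSD12 for BC052241. They had no gene between them in 1 (C21orf58 and PCNT, for BC031638) and 2 genes between them in 2 (APOPT1 and KLC1, for AK097119, and C22orf39 and HIRA, for BX648073). The position of the genes was not used in the search. The genes were compared in a RefSeq table of another human build (GRCh38.p14), for order and overlap only.

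Within the 57 pairs the entry usually held the smaller part. Its mean share of the summed fragments ran from 0.295% to 98.4% with a median of 18.6%, and it was under 10% in 19 pairs and over 50% in 14. BC010924 took 0 and 0.0567% of the sum with MALAT1 in shZMYND8 libraries, 0.408% and 0.283% in shJARID1D, and 0.869% and 0.282% in shLuciferase, while MALAT1 itself stood at 1935 to 2876 CPM. Near the other end, BC069212 took 92.8% to 96.8% of its sum with BC021234, an unnamed entry under the limit.

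First, shZMYND8 cells were compared with shLuciferase cells, for the entries that change with less ZMYND8 RNA. Of the 148 entries, 29 (19.6%) passed the threshold, 13 higher and 16 lower in shZMYND8. Over everything tested, 16.2% passed (8.89% higher and 7.34% lower), and among those with a mean count of at least 100 the share was 18.4%, so the share of the unnamed entries was near the background. Named long noncoding RNAs passed in 10.3% of cases, 12 higher and 11 lower, and protein-coding symbols in 18.8%. The median log2 fold change of the 148 was 0.00 and the median of its size 0.36, against -0.01 and 0.27 over everything tested. Among all with a mean count of at least 100 these were -0.04 and 0.22. In 95 entries (64.2%) the libraries of both groups did not overlap, against 57.8% over everything tested. With either shZMYND8 library left out, far fewer of the 148 passed, and far fewer of everything tested as well.

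Entries with whole fragments, whose values show no division with another gene, gave 12 of the 29, 7 higher and 5 lower. They were 12 of 66 such entries (18.2%), against 18.4% of all with a mean count of at least 100. The largest rise was in AK091866, at 66.0 and 62.4 CPM in shZMYND8, 42.0 and 32.4 CPM in shJARID1D, and 26.9 and 20.6 CPM in shLuciferase. The 3 groups did not overlap, with shZMYND8 at the top and shLuciferase at the bottom. AK091866 was 2.7-fold higher in shZMYND8 than in shLuciferase (1.44 ± 0.17, edgeR adjusted p = 0.000889) and passed with each library left out, with edgeR adjusted p up to 0.0127. AK021933 had 14.2 and 15.3 CPM in shZMYND8, 9.85 and 12.2 CPM in shJARID1D, and 7.15 and 5.95 CPM in shLuciferase. Its groups also followed each other without overlap, in the same order. It was 2.25-fold higher in shZMYND8 (1.17 ± 0.18, edgeR adjusted p = 0.00255, at most 0.0276 with a library left out). BC043570 had 7.07 and 7.13 CPM in shZMYND8, 2.79 and 2.27 CPM in shJARID1D, and 3.41 and 3.77 CPM in shLuciferase, a different order, with shJARID1D lowest. Against shLuciferase it was 1.98-fold higher in shZMYND8 (0.98 ± 0.21, edgeR adjusted p = 0.0123), and the call was lost without either shZMYND8 library (edgeR adjusted p up to 0.0916).

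Of the whole entries that fell in shZMYND8, AL050000 had the largest change. It stood at 2.36 and 3.18 CPM in shZMYND8, 6 and 4.42 CPM in shJARID1D, and 6.30 and 6.55 CPM in shLuciferase. The shZMYND8 libraries were the lowest, the shLuciferase libraries the highest, and the shJARID1D libraries lay between them. AL050000 was 2.32-fold lower than in shLuciferase (-1.21 ± 0.24, edgeR adjusted p = 0.00941), a call lost without shZMYND8 replicate 1 (edgeR adjusted p = 0.0982). AF086132 had 7.20 and 5.50 CPM in shZMYND8 and 13.7 and 9.42 CPM in shLuciferase, with 7.16 and 6.60 CPM in shJARID1D between the shZMYND8 values. It was 1.82-fold lower in shZMYND8 (-0.86 ± 0.22, edgeR adjusted p = 0.0276), a call that ended without either shZMYND8 library or shLuciferase replicate 1, with an edgeR adjusted p up to 0.195. AX747104, at 2.83 and 2.71 CPM in shZMYND8, was 1.81-fold lower (-0.86 ± 0.22, edgeR adjusted p = 0.0264) than in shLuciferase, at 5.45 and 4.58 CPM, with the shJARID1D libraries at 4.88 and 5.36 CPM. It lost the call without the same 3 libraries (edgeR adjusted p up to 0.146).

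**Figure D2:**
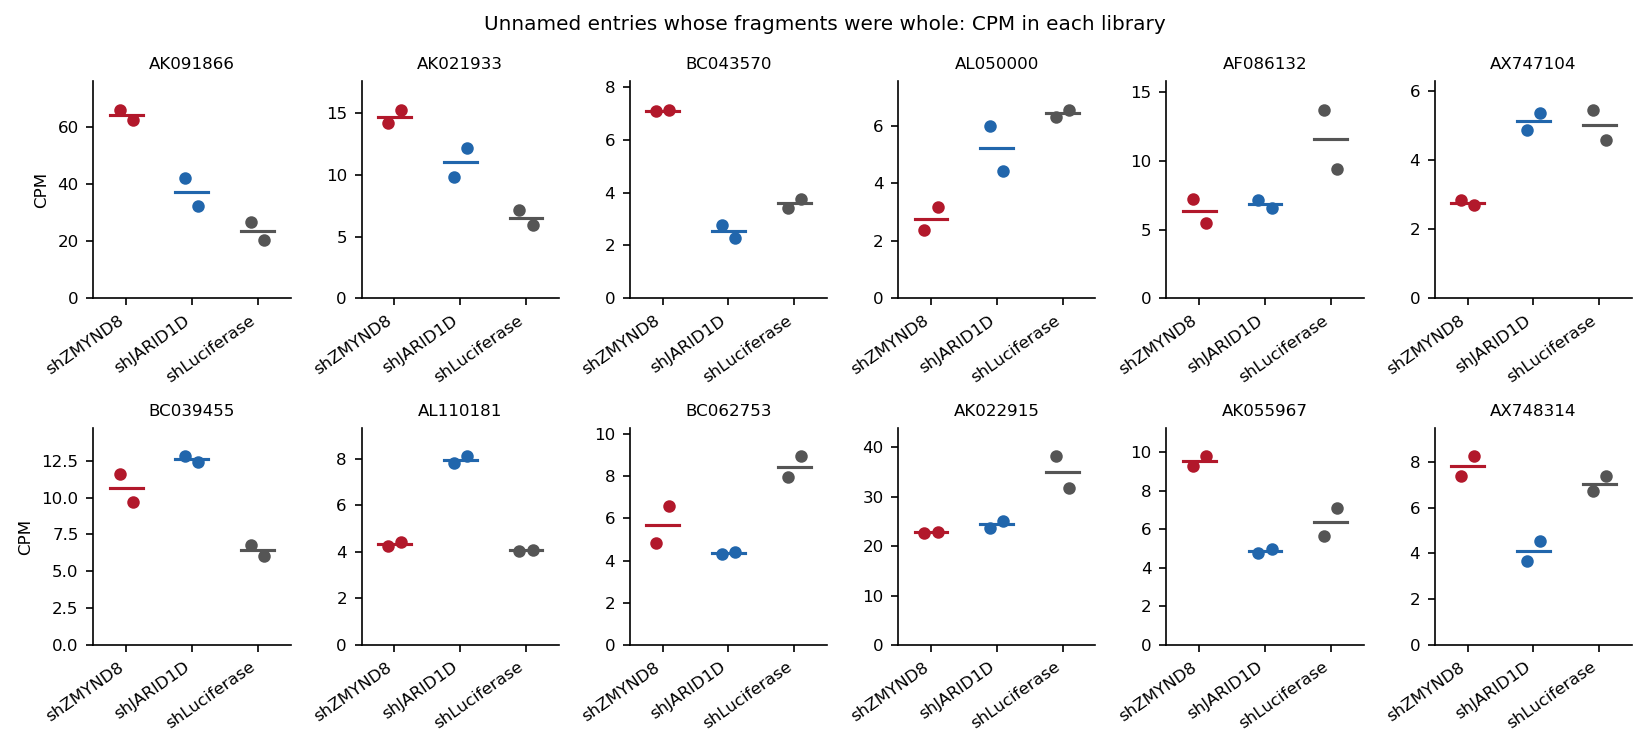
CPM on a linear axis from 0 in each of the 6 libraries (points) with the group mean (line), for 12 unnamed entries whose fragments were whole in every library, in shZMYND8, shJARID1D and shLuciferase cells with 2 libraries each. AK091866 and AK021933 stand highest in shZMYND8 and lowest in shLuciferase, AL110181 is high in shJARID1D alone (7.8 and 8.1 CPM), and AK022915 is lower in both knockdowns than in shLuciferase.

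Entries that divided their fragments with a single partner gave 13 of the 29 calls in shZMYND8. They were 13 of 57 such entries (22.8%), against 18.4% of all with a mean count of at least 100. In 4 of the 13 the partner passed in the same direction. In the other 9 the partner did not pass, and in 0 did it pass in the opposite direction. BC016015 with SOD2 is a pair that rose together. BC016015 had 174 and 124 CPM in shZMYND8, 120 and 98.5 CPM in shJARID1D, and 93.8 and 45.9 CPM in shLuciferase, where the 2 libraries of the control were over 2-fold apart. SOD2 had 530 and 403 CPM in shZMYND8, 283 and 249 CPM in shJARID1D, and 195 and 147 CPM in shLuciferase. Both genes stood highest in shZMYND8 and lowest in shLuciferase, and SOD2 held the larger part of the sum in every library. BC016015 was 2.14-fold higher in shZMYND8 than in shLuciferase (1.09 ± 0.29, edgeR adjusted p = 0.0292), and SOD2 changed by 1.45 ± 0.18 (edgeR adjusted p = 0.00104). The entry lost its call without either shZMYND8 library (edgeR adjusted p = 0.211 and 0.0544 without replicates 1 and 2) and in DESeq2, with an adjusted p of 0.0984. Its log2 fold change was 1.70 without shLuciferase replicate 1 and 0.66 without shLuciferase replicate 2. For the summed fragments of the pair the log2 fold change was 1.35 ± 0.20 (edgeR adjusted p = 0.00239).

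AK023159 and its partner LSM11, a component of the U7 particle that forms the ends of histone messenger RNAs, also rose together. The entry had 18.7 and 19.3 CPM in shZMYND8, 9.94 and 11.7 CPM in shJARID1D, and 9.45 and 11.1 CPM in shLuciferase. Both shZMYND8 libraries lay above the rest, and the other groups overlapped. It changed by 0.88 ± 0.16 in shZMYND8 (edgeR adjusted p = 0.00521), LSM11 by 1.11 ± 0.17 (edgeR adjusted p = 0.00278), and their sum by 0.98 ± 0.14 (edgeR adjusted p = 0.00188). AK123459 and LMO7, a LIM domain protein of cell junctions, fell together. The entry had 2.61 and 2.71 CPM in shZMYND8, 4.93 and 3.90 CPM in shJARID1D, and 6.94 and 4.88 CPM in shLuciferase, lowest in both shZMYND8 libraries. It changed by -1.15 ± 0.25 (edgeR adjusted p = 0.0134, lost without either shZMYND8 library at up to 0.103) and LMO7 by -0.88 ± 0.15 (edgeR adjusted p = 0.00509).

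Where the entry holds a small share, the sum follows the partner whatever the entry does. BC010924, at most 0.869% of its sum, had 0 and 33 fragments in shZMYND8 libraries, 208 and 111 in shJARID1D, and 566 and 133 in shLuciferase, or 0 and 1.25, 8.83 and 5.49, and 25.2 and 5.74 CPM. The shZMYND8 libraries were the lowest, and the control libraries differed over 2-fold. The fitted log2 fold change of -4.62 ± 0.90 (edgeR adjusted p = 0.00828), the largest in size of the 148, therefore rests on a library at 0. Without that library, shZMYND8 replicate 1, it was -3.63 with an edgeR adjusted p of 0.0559, without shLuciferase replicate 1 it was -3.20 (edgeR adjusted p = 0.0137), and DESeq2 gave an adjusted p of 0.102. The partner MALAT1 had 2469 and 2200 CPM in shZMYND8 and 2876 and 2023 CPM in shLuciferase, groups that overlapped. MALAT1 changed by -0.07 ± 0.17 (edgeR adjusted p = 0.821), and the sum of both by -0.08 ± 0.17 (edgeR adjusted p = 0.799).

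AX747770, whose partner AP1G2 encodes a subunit of a clathrin adaptor, had 7.80 and 7.30 CPM in shZMYND8, 4.37 and 4.16 CPM in shJARID1D, and 4.05 and 4.41 CPM in shLuciferase. The shZMYND8 libraries stood apart from the other 4. The entry changed by 0.84 ± 0.19 (edgeR adjusted p = 0.0162, lost without either shZMYND8 library at up to 0.128), AP1G2 by -0.19 ± 0.15 (edgeR adjusted p = 0.423), and the sum by -0.02 ± 0.14 (edgeR adjusted p = 0.945). The entry's share of the sum was 23.7% and 20.3% in shZMYND8 and 12.9% and 11.5% in shLuciferase. AL049935 with FNBP1, a membrane-bending protein, held 11.2% of its sum in both shZMYND8 libraries, 15.8% and 15.3% in shJARID1D, and 17.3% and 15.9% in shLuciferase. It changed by -0.72 ± 0.15 in shZMYND8 (edgeR adjusted p = 0.0123, lost without either shZMYND8 library at up to 0.124), its sum by -0.15 ± 0.12 (edgeR adjusted p = 0.423). AK316092 with PPP1R15B and BC069739 with RBM15, an RNA-binding protein of the complex that methylates adenosines in RNA, passed at log2 fold changes of 0.46 and -0.56 (edgeR adjusted p of 0.0448 and 0.0492, up to 0.229 and 0.236 with a library left out, either shZMYND8 library among them), their sums being at 0.15 and -0.13 with edgeR adjusted p of 0.406 and 0.531. These 2 entries and AL049935, like AK097012 below, were chosen for display after their values were seen.

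**Figure D3:**
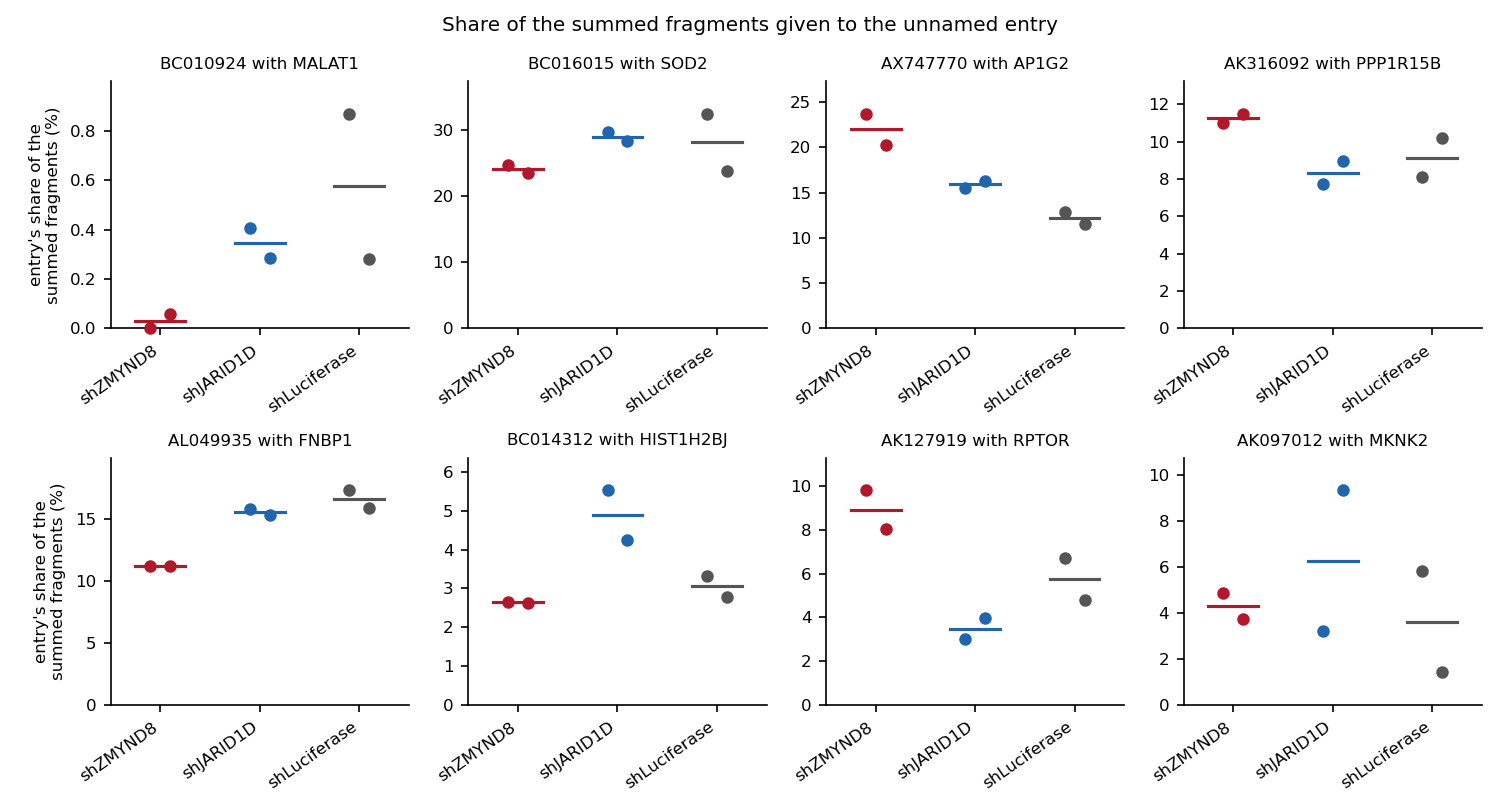
The share of the summed fragments given to the unnamed entry (percent, linear axes from 0 that differ between panels) in each of the 6 libraries (points) with the group mean (line), for 8 pairs. AX747770 holds 23.7% and 20.3% of its sum with AP1G2 in shZMYND8 and 12.9% and 11.5% in shLuciferase, and AK097012 holds 3.2% and 9.35% of its sum with MKNK2 in shJARID1D and 5.83% and 1.42% in shLuciferase.

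Of the remaining named falls in shZMYND8, AK000154 with NHLRC2 changed by -0.76 ± 0.17 (edgeR adjusted p = 0.0131, up to 0.133 without either shZMYND8 library) and its sum by -0.50 ± 0.14 (edgeR adjusted p = 0.0381). It had 12.9 and 15.1 CPM in shZMYND8, 26.1 and 24.6 CPM in shJARID1D, and 27.2 and 20.3 CPM in shLuciferase. BC069212 had 5.18 and 5.71 CPM in shZMYND8, 7.16 and 7.12 CPM in shJARID1D, and 10.4 and 12.2 CPM in shLuciferase, 3 levels with no overlap. Its change in shZMYND8 was -1.05 ± 0.18 (edgeR adjusted p = 0.00415, and 0.0573 without shZMYND8 replicate 1). For 2 of the named entries no unique partner or sum was found although their values were divided. AX747619 had 8.61 and 9.75 CPM in shZMYND8, 2.87 and 3.56 CPM in shJARID1D, and 4.60 and 5.48 CPM in shLuciferase (0.86 ± 0.20 against shLuciferase, edgeR adjusted p = 0.0182). AL157440 had 3.38 and 2.92 CPM in shZMYND8, 5.44 and 6.04 CPM in shJARID1D, and 5.36 and 7.5 CPM in shLuciferase (-1.03 ± 0.23, edgeR adjusted p = 0.0158). Both lost the call without either shZMYND8 library, and AL157440 also without shLuciferase replicate 2, with edgeR adjusted p up to 0.14 and 0.121.

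**Figure D4:**
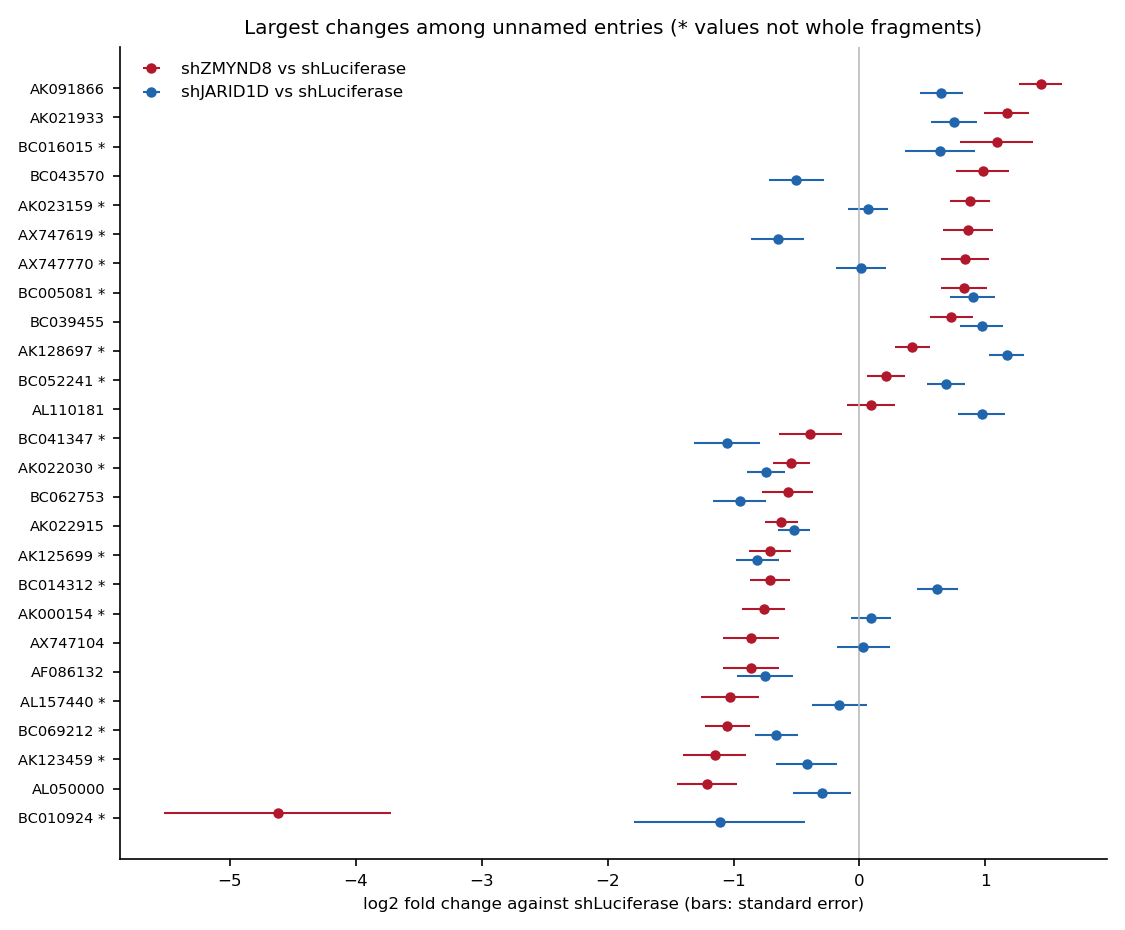
Log2 fold changes against shLuciferase (points, with the standard error from the fit as bars) in shZMYND8 and shJARID1D for the 26 entries named for their changes against the control. An asterisk marks an entry whose values were not whole fragments in some library. BC010924 lies farthest from 0 in shZMYND8 at -4.62, AK091866 is the largest rise at 1.44, and BC014312 lies below 0 in shZMYND8 and above 0 in shJARID1D. Both sets of points share the shLuciferase libraries.

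The comparison of shJARID1D with shLuciferase asked the same of the demethylase. It gave 12 of 148 entries (8.11%) past the threshold, 7 higher and 5 lower in shJARID1D, where 5.75% of everything tested passed (2.96% higher and 2.79% lower) and 6.89% of all with a mean count of at least 100. With library totals as the only scaling, the split was 11 higher and 3 lower. Named long noncoding RNAs passed in 5.36% of cases, 9 higher and 3 lower. The median log2 fold change was -0.02 in the 148 and 0.00 over everything tested, and the groups did not overlap in 78 entries (52.7%) and in 51.9% of everything tested. None of the 12 calls held in all 6 fits that left out a library each (0 of 12). With either shJARID1D library left out, far fewer of the 148 passed, and far fewer of everything tested as well. With either shZMYND8 library left out, fewer passed, again in both. Without shLuciferase replicate 1 more passed, in the 148 and in everything tested. With a replicate block 26 passed, and 2073 of everything tested in place of 912.

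AK128697 had the largest rise in shJARID1D. It stood at 18.3 and 18.4 CPM in shJARID1D, at 11 and 10.8 CPM in shZMYND8 and at 8.22 and 8.05 CPM in shLuciferase, with the libraries of each group nearly alike and no overlap. Against shLuciferase it was 2.25-fold higher in shJARID1D (1.17 ± 0.14, edgeR adjusted p = 0.00702), a call that ended without either shJARID1D library (edgeR adjusted p up to 0.0662). Its values were not whole in some libraries. AL110181, with whole fragments, had 7.80 and 8.10 CPM in shJARID1D, 4.24 and 4.42 CPM in shZMYND8, and 4.05 and 4.07 CPM in shLuciferase. Here shJARID1D stood alone. The change was 0.97 ± 0.19 (edgeR adjusted p = 0.0221), and up to 0.133 without either shJARID1D library. BC052241, which adds up to whole numbers with C19orf71 and with MFSD12, a transporter of the lysosome, had 33.5 and 25.8 CPM in shJARID1D, 20.7 and 21.7 CPM in shZMYND8, and 18.6 and 18.1 CPM in shLuciferase. It changed by 0.69 ± 0.15 in shJARID1D (edgeR adjusted p = 0.0299, lost without either library of either knockdown at up to 0.249). The 3 values summed changed by 0.50 ± 0.13, with an edgeR adjusted p of 0.0582.

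The largest fall in shJARID1D was in BC041347, at 3.04 and 4.89 CPM in shJARID1D, 5.48 and 7.04 CPM in shZMYND8, and 7.11 and 9.30 CPM in shLuciferase. The shJARID1D libraries were the lowest and the shLuciferase libraries the highest, with no overlap between these groups. Against shLuciferase BC041347 changed by -1.05 ± 0.26 (edgeR adjusted p = 0.0488). The call held in 1 of the 6 fits that left out a library, the one without shLuciferase replicate 1 (edgeR adjusted p = 0.0195), and the highest was 0.283. BC062753, with whole fragments, had 4.33 and 4.42 CPM in shJARID1D, 4.84 and 6.57 CPM in shZMYND8, and 7.96 and 8.95 CPM in shLuciferase. It was 1.93-fold lower in shJARID1D (-0.95 ± 0.21, edgeR adjusted p = 0.033), a call lost without either shJARID1D library or shLuciferase replicate 2 (edgeR adjusted p up to 0.188).

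Both knockdowns were set against the same shLuciferase libraries, so their changes are not independent. The values of entries named for passing in both are given side by side. BC039455, with whole fragments, had 11.6 and 9.70 CPM in shZMYND8, 12.8 and 12.4 CPM in shJARID1D, and 6.81 and 6.04 CPM in shLuciferase. Every knockdown library was above both controls. It changed by 0.73 ± 0.17 in shZMYND8 and by 0.97 ± 0.17 in shJARID1D, with edgeR adjusted p of 0.0176 and 0.0167, the first lost without shZMYND8 replicate 1 (0.169) and the second without either shJARID1D library (up to 0.127). BC005081, which took 79.5% to 84.6% of its sum with BCAN, the brain proteoglycan brevican, had 7.84 and 8.29 CPM in shZMYND8, 8.74 and 8.14 CPM in shJARID1D, and 4.22 and 4.84 CPM in shLuciferase. It was likewise higher in all 4 knockdown libraries, by 0.83 ± 0.18 in shZMYND8 and 0.90 ± 0.18 in shJARID1D, with edgeR adjusted p of 0.0132 and 0.0251. These calls were lost without either shZMYND8 library, the second also without either shJARID1D library, with edgeR adjusted p up to 0.0969 and 0.168. BCAN itself, at 1.06 to 2.01 CPM, had edgeR adjusted p of 0.247 and 0.278. AK021933, described above, was also higher in both, at 0.75 ± 0.18 in shJARID1D with an edgeR adjusted p of 0.0415, which rose up to 0.235 when a library was left out.

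AK125699 was lower in both knockdowns. It shares fragments with BNIP3, a mitochondrial protein induced by low oxygen, and had 6.90 and 6.57 CPM in shZMYND8, 5.96 and 6.60 CPM in shJARID1D, and 10.7 and 11.4 CPM in shLuciferase. Every knockdown library was below both controls, with changes of -0.71 ± 0.17 in shZMYND8 and -0.81 ± 0.17 in shJARID1D and edgeR adjusted p of 0.0187 and 0.0264. BNIP3 passed in the same direction, at -0.62 ± 0.13 (edgeR adjusted p = 0.0134) in shZMYND8 and -0.63 ± 0.13 (edgeR adjusted p = 0.0307) in shJARID1D. AK022030, whose value adds up with TROVE2, an RNA-binding protein, and UCHL5, a deubiquitinase, had 35.6 and 34.1 CPM in shZMYND8, 31.8 and 28.5 CPM in shJARID1D, and 57.7 and 43.4 CPM in shLuciferase. It changed by -0.54 ± 0.15 and -0.74 ± 0.15, with edgeR adjusted p of 0.0379 and 0.0256, and the sum of the 3 by -0.24 ± 0.13 and -0.39 ± 0.13, with edgeR adjusted p of 0.256 and 0.115. AK022915, with whole fragments, had 22.7 and 22.9 CPM in shZMYND8, 23.7 and 25.1 CPM in shJARID1D, and 38.2 and 31.8 CPM in shLuciferase. Both knockdowns lay below both controls, at -0.62 ± 0.13 and -0.52 ± 0.13 with edgeR adjusted p of 0.0121 and 0.0491. Each of these 3 entries lost both calls without some library, shZMYND8 or shJARID1D replicates among them, with edgeR adjusted p up to 0.128 and 0.197 for AK125699, 0.2 and 0.17 for AK022030, and 0.105 and 0.3 for AK022915, in shZMYND8 and shJARID1D.

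BC014312 passed in opposite directions. Its partner HIST1H2BJ encodes a histone H2B. The entry had 5.18 and 5.67 CPM in shZMYND8, 13.2 and 14.1 CPM in shJARID1D, and 9.03 and 8.74 CPM in shLuciferase, 3 groups with no overlap and the control in the middle. It was 1.64-fold lower in shZMYND8 (-0.71 ± 0.16, edgeR adjusted p = 0.0168) and 1.54-fold higher in shJARID1D (0.62 ± 0.16, edgeR adjusted p = 0.048). Without single libraries, either shZMYND8 library among them, these edgeR adjusted p reached 0.141 and 0.229. Between the knockdowns it was 2.52-fold lower in shZMYND8 (-1.33 ± 0.16, edgeR adjusted p = 0.00133), past the threshold with each library left out at up to 0.0214. HIST1H2BJ had 191 and 209 CPM in shZMYND8, 226 and 319 CPM in shJARID1D, and 263 and 304 CPM in shLuciferase. The entry held 2.65% and 2.63% of the sum in shZMYND8, 5.53% and 4.25% in shJARID1D, and 3.32% and 2.79% in shLuciferase. The sum changed by -0.51 ± 0.16, -0.03 ± 0.16 and -0.48 ± 0.16 in shZMYND8 and shJARID1D against shLuciferase and in shZMYND8 against shJARID1D, with edgeR adjusted p of 0.0571, 0.928 and 0.0697. Histone genes have near-identical copies, so the values of HIST1H2BJ and of the sum are uncertain.

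In the direct comparison of shZMYND8 with shJARID1D, 26 of 148 entries (17.6%) passed, 13 higher and 13 lower in shZMYND8, against 15.7% of everything tested (8.67% higher and 7.02% lower) and 18.2% of all with a mean count of at least 100. With library totals as the only scaling, 11 were higher and 19 lower. Named long noncoding RNAs passed in 12.5% of cases, 8 higher and 20 lower. The median log2 fold change was -0.01 over the 148, and the groups did not overlap in 101 entries (68.2%), against 65.4% over everything tested. The count moved with single libraries, and so did the count over everything tested. Both fell when any single shZMYND8 or shJARID1D library was left out. Both rose when either shLuciferase library was left out. A replicate block gave 44, and 3785 of everything tested in place of 2490.

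The largest rises between the knockdowns were in AX747619 and BC043570, whose values are given above. In both, shZMYND8 was highest and shJARID1D lowest, with no overlap. AX747619 was 2.85-fold higher in shZMYND8 than in shJARID1D (1.51 ± 0.21, edgeR adjusted p = 0.00243) and BC043570 2.8-fold higher (1.49 ± 0.22, edgeR adjusted p = 0.00293), and both passed with each library left out. AK055967, with whole fragments, had 9.30 and 9.79 CPM in shZMYND8 and 4.76 and 4.97 CPM in shJARID1D, with 5.66 and 7.11 CPM in shLuciferase between them (0.97 ± 0.19, edgeR adjusted p = 0.0096). AX748314, also whole, had 7.37 and 8.24 CPM in shZMYND8 and 3.68 and 4.54 CPM in shJARID1D, and at 6.73 and 7.37 CPM shLuciferase lay near shZMYND8 (0.92 ± 0.20, edgeR adjusted p = 0.0139). AK127919, which shares fragments with RPTOR, a subunit of the growth-regulating kinase complex mTORC1, had 7.37 and 6.27 CPM in shZMYND8, 2.40 and 3.47 CPM in shJARID1D, and 4.90 and 4.16 CPM in shLuciferase. It changed by 1.21 ± 0.24 (edgeR adjusted p = 0.0106), RPTOR by -0.21 ± 0.13 (edgeR adjusted p = 0.291) and the sum by -0.12 ± 0.12 (edgeR adjusted p = 0.527). The calls of AK055967, AX748314 and AK127919 were lost without either shZMYND8 library and without shJARID1D replicate 1, that of AK055967 also without shJARID1D replicate 2, with edgeR adjusted p up to 0.0795, 0.114 and 0.0908.

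Among the falls between the knockdowns, BC010924 changed by -3.51 ± 0.92 (edgeR adjusted p = 0.0313, and 0.142 without the shZMYND8 library at 0) and its sum with MALAT1 by 0.18 ± 0.17 (edgeR adjusted p = 0.494). DESeq2 gave an adjusted p of 0.249 for the entry. AL050000, at -0.91 ± 0.24 (edgeR adjusted p = 0.034), lost its call when any single shZMYND8 or shJARID1D library was left out (edgeR adjusted p up to 0.217). BC017971 had 10.2 and 8.03 CPM in shZMYND8, 19.7 and 18.2 CPM in shJARID1D, and 14.5 and 11.1 CPM in shLuciferase. The groups did not overlap, with shJARID1D highest. Against shJARID1D it was 2.08-fold lower in shZMYND8 (-1.06 ± 0.18, edgeR adjusted p = 0.0056, and 0.0669 without shZMYND8 replicate 2), and its sum with FAM200B was lower too, by -0.62 ± 0.12 (edgeR adjusted p = 0.00998). AK096475 had 7.03 and 7.21 CPM in shZMYND8, 13.5 and 13.7 CPM in shJARID1D, and 12 and 9.6 CPM in shLuciferase. It changed by -0.93 ± 0.17 (edgeR adjusted p = 0.00729, up to 0.0685 when a shZMYND8 library or shJARID1D replicate 2 was left out).

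Over the 3 comparisons 44 entries passed at least once and 104 in none. The same count was not made over everything tested, so it cannot be set against a background. Summing each divided entry with its 1 or 2 partners was tried after the data were seen. Of the divided entries with partners that passed, 14 in shZMYND8 against shLuciferase, 6 in shJARID1D against shLuciferase and 9 between the knockdowns, the sum also passed in 7, 2 and 4. These counts include entries with a small share, whose sums are nearly the value of the partner. The direction of the sum was opposite to that of the entry in 1, 1 and 2 of them. For the single partners alone, the partner passed in the same direction as the entry in 4 of 13, 1 of 4 and 3 of 9. Over everything tested, 8.89%, 2.96% and 8.67% passed higher and 7.34%, 2.79% and 7.02% lower.

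**Figure D5:**
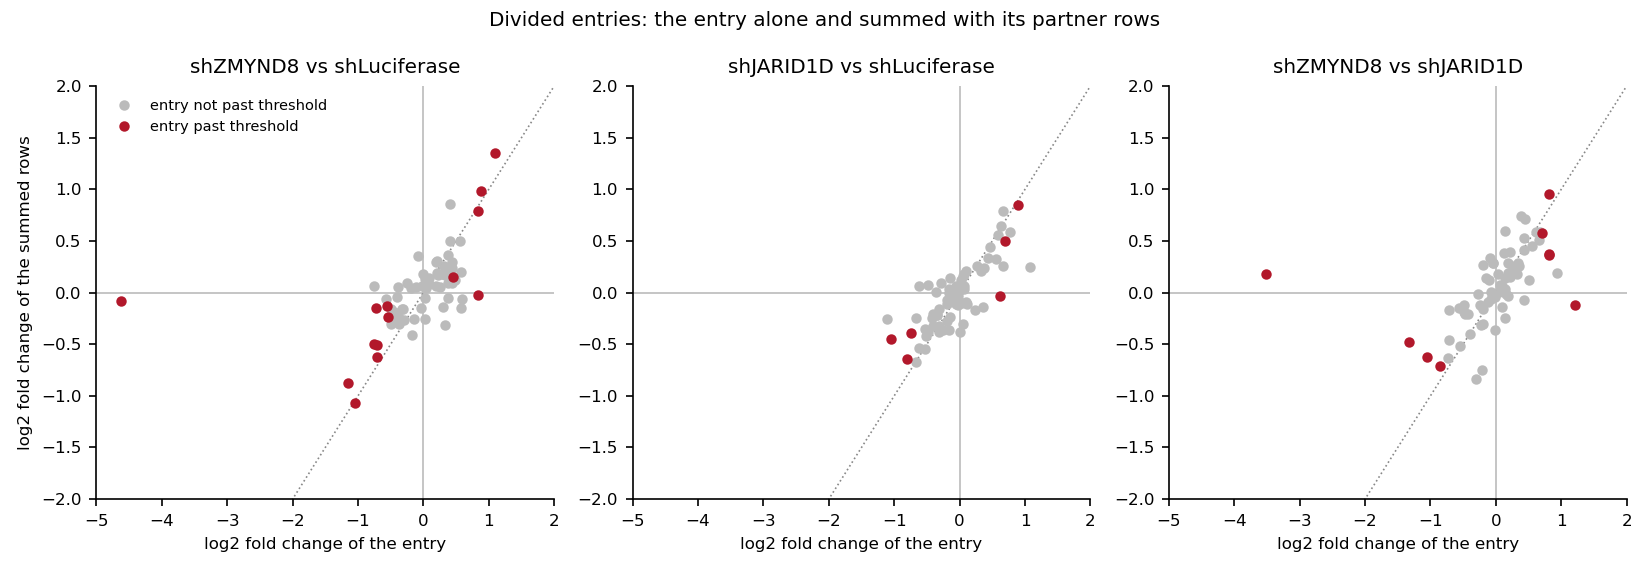
Log2 fold change of each divided entry (horizontal axis) against that of its fragments summed with its partners (vertical axis, a shorter range) in the 3 comparisons, the dotted line marking equal values. Red points are entries past the threshold. BC010924 lies far left at -4.62 and -3.51 with sums at -0.08 and 0.18, and its sum is nearly the value of MALAT1, since the entry holds at most 0.869% of it.

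The spread between the 2 libraries of a group was set beside that of other kinds of gene. The median absolute log2 CPM difference between libraries was 0.18 in shZMYND8, 0.15 in shJARID1D and 0.26 in shLuciferase for the 148 entries. It was 0.15, 0.18 and 0.21 for named long noncoding RNAs and 0.12, 0.12 and 0.21 for protein-coding symbols. Unnamed entries have lower counts than protein-coding symbols, so the medians are also given by mean count, for the same groups in the same order. Between 100 and 200 they were 0.21, 0.21 and 0.25 for unnamed entries and 0.18, 0.20 and 0.24 for protein-coding symbols. Between 200 and 500 they were 0.15, 0.11 and 0.29 against 0.13, 0.15 and 0.23. From 500 upwards they were 0.13, 0.12 and 0.31, over 25 unnamed entries, against 0.10, 0.11 and 0.20.

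Differences of over 2-fold between the libraries of 1 group occurred 14 times, in 10 of the 148 entries. Of the 10, 9 had a partner or a sum with 2 others, as did 70 of the 148. Whether or not a partner was found, 77 of the 148 were not whole in at least 4 libraries and 5 in 1 to 3. In shZMYND8, shJARID1D and shLuciferase such differences occurred 3, 6 and 5 times, against 26, 11 and 57 times among 11004 protein-coding symbols. At mean counts between 100 and 200 they occurred 3, 6 and 3 times in 72 unnamed entries, against 9, 6 and 28 times in 1100 symbols. Between 200 and 500 it was 0, 0 and 1 in 51, against 7, 4 and 15 in 2127. From 500 upwards it was 0, 0 and 1 in 25, against 10, 1 and 14 in 7777. In the same order, the median differences were 0.18, 0.12 and 0.26 for whole entries and 0.17, 0.21 and 0.26 for entries with a single partner. AK097012, whose partner MKNK2 is a kinase that phosphorylates a translation initiation factor, had 8.74 and 6.10 CPM in shZMYND8, 6.04 and 18.2 CPM in shJARID1D, and 9.20 and 2.31 CPM in shLuciferase. Its summed level was 189 and 194 CPM in the shJARID1D libraries and 157 and 164 CPM in the shLuciferase libraries. AK125558 held 40.7% and 87.4% of its sum with AX747493 in shZMYND8, 100% and 38.2% in shJARID1D, and 84.0% and 58.0% in shLuciferase. The sum stood at 12.5 and 13.6 CPM in shZMYND8 and 9.25 and 8.8 CPM in shJARID1D. BC062762 with SLC39A9, a zinc transporter, and BC024682, summed with DCAF7 and DQ577731, were 7.76 and 1.67 CPM, and 6.13 and 0.814 CPM, in the shJARID1D libraries, where the sums were 297 and 304 CPM, and 173 and 179 CPM. CR936829 with PPP2R2A, a subunit of protein phosphatase 2A, had 9.25 and 3.61 CPM in shZMYND8 and 2.06 and 4.67 CPM in shJARID1D.

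For the 13 occurrences in divided entries, the sums differed between the same libraries by 0.03 to 0.59 on the log2 scale, and in 0 of them by over 1, with the partner giving most of the sum where the entry's share is small. The exception among the 10 was AK094188, whose fragments were whole and which had 7.45 and 3.6 CPM in the shLuciferase libraries. The entries of this paragraph and the one before were chosen by this spread, after their values were seen, so the size of their spread is a description.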

How the data were processed

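RNA sequencing libraries of 6 samples, 2 per group, were analysed. The deposited table holds estimated counts per entry and library, made by the authors and not whole numbers. Per the submitters' processing notes, hg19 was the build, and edgeR 3.12.0, Cuffdiff, Bowtie 1.1.2 and TopHat2 2.0.12 were used, without their roles. Neither the annotation nor strandedness is stated, and genes that overlap or lie antisense cannot be told apart. Library totals and the counts that 1 fragment is worth are given with the results. Columns named for a Rac7 knockout were taken as shZMYND8, since an antibody label gives RACK7 as another name of ZMYND8. The 18 variance columns were not used; the uncertainty variance is 0 in every entry, so the intended measure of shared reads from it could not be made.

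Entries unquantified in any library were left out. The estimated counts were rounded and the whole table was tested in edgeR 4.0.16 under R 4.3.3 with the quasi-likelihood F test, TMM factors (0.966 to 1.06), filterByExpr and Benjamini-Hochberg adjustment over 15867 entries, with a common biological coefficient of variation of 12.3% and 3 residual and 6.83 prior degrees of freedom. Standard errors are the log2 fold change over the root of F. Values are log2 CPM with a prior count of 2 where libraries of a group are compared. Whole fragments and partners were read from the deposited counts divided by the value of 1 fragment, a measure chosen after the data were seen, and the partner search and the edgeR fit were tested on simulated data. The members, the lists and the named entries were chosen with earlier results of these data known. Named entries were the 5 most abundant, up to 8 largest rises and 8 largest falls in each knockdown and 5 each way between knockdowns, past the threshold without overlap of the libraries, up to 6 past it in both knockdowns, the 6 nearest to the limit and both targets. Alternatives were other scalings, no filter, DESeq2 1.42.0, only the groups compared, a replicate block, the deposited scaling undone, each library left out, stricter thresholds, a mean count of 200 and, added after seeing the data, divided entries summed. Python 3.11.15 with pandas 2.3.3, numpy 2.4.6, scipy 1.17.1 and matplotlib 3.10.9 made tables and figures. A partner of 1 entry and a marker are not reported here.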

Additional observations from a re-analysis of the deposited data

How the results depend on the processing

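The number of entries past the threshold was 29 in shZMYND8 against shLuciferase, 12 in shJARID1D against shLuciferase and 26 in shZMYND8 against shJARID1D. An adjusted p under 0.01 left 6, 1 and 10 in the same order, a log2 fold change of at least 1 left 8, 2 and 6, and a mean count of at least 200 left 15, 7 and 12. Over everything tested, a log2 fold change of at least 1 left 803, 239 and 635. For the stricter adjusted p and the higher mean count, no count over everything tested is given. Leaving out each library gave 3 to 41, 0 to 22 and 4 to 46. In these fits the counts over everything tested moved too, both below and above those of the fit with all libraries. Without a filter on low counts 3 entries passed in shJARID1D. In a fit of only the 2 groups 4 passed in shJARID1D and 45 between the knockdowns. Everything tested gave 204, 449 and 4252 in these 3 cases, where the fit as reported gave 912, 912 and 2490. DESeq2 called 27, 14 and 24, and 2594, 1336 and 2480 over all entries and genes it fitted. With divided entries summed, 25, 12 and 29 passed, and 2588, 931 and 2521 of everything tested. The share of values within 0.02 of a whole fragment was 46.4%.

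The replicate numbers were not shown to pair the libraries: deviations of equally numbered libraries correlated at 0.17 between shJARID1D and shLuciferase, 0.0925 between shZMYND8 and shLuciferase, and 0.0969 between shZMYND8 and shJARID1D, over 15867 entries, which are not replicates. With a replicate block 42, 26 and 44 entries passed, and 3699, 2073 and 3785 of everything tested. Over 42 named comparisons and 14 alternatives (588 values), 444 kept direction and side of the threshold, 140 kept the direction and lost the call, and 4 reversed. All 4 reversed when divided entries were summed: AK127919 between the knockdowns (-0.12, edgeR adjusted p = 0.527), BC010924 between the knockdowns (0.18, 0.494), AX747770 in shZMYND8 (-0.02, 0.945) and BC014312 in shJARID1D (-0.03, 0.928). By construction the sum includes the partner's fragments, which are nearly all of it where the entry's share is small. Without shZMYND8 replicates 1 and 2, 31 and 27 of the 42 calls were lost, with a single library left in that group, assumed to vary like the others. Scalings moved the median of everything tested by at most 0.089. With 2 libraries per group no test of a single entry by permutation could pass.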

Other observations

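Unnamed entries under the mean count of 100 were also fitted, 674 of them with enough counts. Past the threshold were 44 in shZMYND8 against shLuciferase, 29 higher and 15 lower, 10 in shJARID1D against shLuciferase, 7 higher and 3 lower, and 40 in shZMYND8 against shJARID1D, 26 higher and 14 lower. These are 6.53%, 1.48% and 5.93% of the 674, where 16.2%, 5.75% and 15.7% of everything tested passed. Of the 15867 tested, 11781 had a mean count of at least 100, so these shares are not matched for count. The median size of the log2 fold change was 0.44, 0.42 and 0.42 in the 674, against 0.27, 0.23 and 0.27 over everything tested. The following were chosen after their values were seen. AK057897 had no fragments in either shZMYND8 library, 0.257 and 0.386 CPM in shJARID1D, and 1.7 and 1.67 CPM in shLuciferase. Against a floor of 3 fragments per library, with both on plain library totals, it was at least 14.1-fold lower in shZMYND8 than in shLuciferase. AX747150 had 0.0428 and 0.129 CPM in shZMYND8, 0.857 and 0.386 CPM in shJARID1D, and 2.98 and 3.51 CPM in shLuciferase, the same order of groups. AX747756 had 9.30 and 5.84 CPM in shZMYND8, 2.87 and 2.57 CPM in shJARID1D, and 1.23 and 0.857 CPM in shLuciferase, with a log2 fold change of 2.85 ± 0.32 in shZMYND8 against shLuciferase (edgeR adjusted p = 0.000752). AK098769 was high in shJARID1D alone, at 2.23 and 1.37 CPM, against 0 and 0.0859 CPM in shZMYND8 and 0.341 and 0 CPM in shLuciferase. Whether these entries divide fragments with other genes was not tested.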
